A study of Mus musculus with 5 samples.

Results

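The bone-forming cells of the mouse penis were 111 of 19633 kept penis cells, and of 69443 kept cells over all 5 libraries of the study. They were chosen by a rule on their own counts of UMIs (unique molecular identifiers, each standing for 1 captured RNA molecule). A penis cell was kept with 500 to 6000 detected genes and at most 5% of its UMIs from mitochondrial genes. A kept cell was a member if it held at least 1 UMI of *Runx2*, at least 1 UMI of 2 or more of 7 bone genes (*Sp7*, *Ibsp*, *Alpl*, *Spp1*, *Bglap*, *Ifitm5* and *Dmp1*) and a *Col2a1* level under 1000 CPM (UMIs of a gene per 1000000 UMIs), and if it held no UMI of the macrophage genes *C1qa*, *C1qb* and *Tyrobp*. The last condition dropped 0, 3 and 1 cells. These 12 genes chose the members, so their levels are given below as a description, without test results.

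The data were droplet-based 3′ single-cell RNA-seq of male mice that the labels give as C57BL/6N: 3 penis libraries from postnatal day 6 (P6), and 1 forelimb and 1 hindlimb library from embryos at day 15. The study's methods describe P6 penis as the glans with the prepuce removed, from mice of more than 1 litter, at the age when the baculum, the bone of the penis, is just beginning to form. The study's methods give C57BL/6J as the genotype of all mice, and the age of the limbs as E14.5 in 1 place and E15.5 in others. The labels do not say which mouse each penis library came from, so the spread between these 3 libraries, on which p-values rest, may be partly technical. The fits shared this spread in part or in full over genes, so a p-value does not rest on the gene's own spread alone. In the comparison with limbs the spread also holds the difference between forelimb and hindlimb. The labels give no transgene, mutation or treatment for any group. The deposited penis tables held 70554067 to 100636762 UMIs, and those of forelimb and hindlimb held 156060382 and 162335993.

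Bone is laid down by osteoblasts. RUNX2 is the transcription factor that commits mesenchymal cells to this line, and SP7 acts after it. Committed cells make alkaline phosphatase (*Alpl*), and maturing osteoblasts secrete type I collagen, osteopontin (*Spp1*), bone sialoprotein (*Ibsp*) and osteocalcin (*Bglap*) before some are buried in mineral as osteocytes (*Dmp1*). Late cartilage cells also switch on *Runx2* and several of the same genes, which is why the rule set a limit on *Col2a1*, the collagen of cartilage. The baculum is known to form partly from a cartilage template and partly directly from mesenchyme.

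RUNX proteins bind DNA at sites that hold the letters ACCACA, and osteocalcin and *Mmp13* are textbook RUNX2 target genes. The 250 bases before the start site are shown for 3 genes that the results turn on, from RefSeq on GRCm38.p6 and read 5′ to 3′ on the gene's strand, with the letters ACCACA (or TGTGGT, the same site on the other strand) in capitals.
*Mmp13*, chr9:7272264-7272513, plus strand: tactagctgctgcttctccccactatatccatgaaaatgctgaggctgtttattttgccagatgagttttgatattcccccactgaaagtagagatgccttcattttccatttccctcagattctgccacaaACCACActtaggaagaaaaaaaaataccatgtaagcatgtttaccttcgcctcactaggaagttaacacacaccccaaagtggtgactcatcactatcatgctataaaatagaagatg
*Bglap*, chr3:88384467-88384716, minus strand: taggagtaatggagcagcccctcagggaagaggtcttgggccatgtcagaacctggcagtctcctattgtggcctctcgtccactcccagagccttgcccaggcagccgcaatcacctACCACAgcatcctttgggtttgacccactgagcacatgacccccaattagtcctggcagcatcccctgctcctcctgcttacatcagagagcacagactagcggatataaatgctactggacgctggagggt
*Ibsp*, chr5:104299037-104299286, plus strand: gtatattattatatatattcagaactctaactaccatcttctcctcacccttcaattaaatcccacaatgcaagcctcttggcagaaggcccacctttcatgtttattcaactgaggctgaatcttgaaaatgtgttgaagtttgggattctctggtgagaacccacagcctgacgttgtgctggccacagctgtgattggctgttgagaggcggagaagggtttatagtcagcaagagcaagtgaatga
The letters stood once in the *Mmp13* window, starting 118 bases before the start site, once in the *Bglap* window, starting 132 bases before it, and not in the *Ibsp* window. Of 27025 genes with such a window, 15.9% held the letters on at least 1 strand. Among genes tested below the share was 13.4% of 13214, and among genes called higher in the bone-forming cells it was 12.8% of 235 and among those called lower 16.1% of 498. A match is a description of the sequence and says nothing of binding. GENCODE places the start of *Ibsp* inside the window shown, upstream of the RefSeq start.

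The penis libraries held 42, 39 and 30 members, which was 0.617% (exact 95% binomial interval 0.445 to 0.833), 0.549% (0.391 to 0.749) and 0.524% (0.354 to 0.748) of the kept cells, or 0.563% ± 0.048 (SD, n = 3). These intervals cover counting error only and overlap. The members held a median of 13159, 13817 and 11835 UMIs, against 9884, 9333 and 8764 in the other kept cells, so a member was seen at greater depth than the cells it was compared with. When every cell was first thinned to 2000 UMIs, the share passing the rule was 0.185% ± 0.055 (SD, n = 3). Any pair of penis libraries shared 20 to 37 cell barcodes, out of 8411 to 11397 barcodes in each.

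The marker genes given for the label were present in the set but not in every cell. *Sp7* had a UMI in 50, 56.4 and 60% of the members of the 3 libraries, *Ibsp* in 35.7, 25.6 and 33.3% and *Bglap* in 28.6, 20.5 and 26.7%. In the other kept penis cells these shares were 3.37, 2.99 and 3.02% for *Sp7*, 1.21, 1.67 and 1.02% for *Ibsp* and 0.488, 0.467 and 0.527% for *Bglap* at the depths given above, a contrast that the rule itself makes. At 2000 UMIs a cell the shares of members were 13.0% ± 2.10 for *Sp7*, 20.6% ± 4.45 for *Ibsp* and 14.6% ± 4.62 for *Bglap* (SD, n = 3), against 0.706%, 0.434% and 0.131% of the other cells. *Alpl* had a UMI in 98 of the 111 members, *Spp1* in 53, *Ifitm5* in 31 and *Dmp1* in 12.

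The UMIs of the late bone genes lay in few cells. *Ibsp* had 1464 UMIs in 35 of the 111 members, and 3 cells held 70.9% of them. *Bglap* had 541 UMIs in 28 members with 63.2% in 3 cells, and *Spp1* had 14600 UMIs in 53 members with 37.0% in 3 cells. *Runx2* was spread more evenly, at a median of 12 UMIs a member with 12.7% of its 1759 UMIs in the top 3 cells. In each library, however, some members passed the rule on 1 UMI of *Runx2*. One such cell of library 1 had 869 UMIs in all and 1 UMI of *Col1a1*. Another of library 1 had 23815 UMIs, with 1 UMI each of *Ibsp*, *Alpl* and *Col1a1*. The tenascin gene *Tnc*, which is not a gene of the rule, had a UMI in 90 of the 111 members with 10.7% of its UMIs in 3 cells. Levels summed over a library therefore rest on a handful of cells for *Ibsp* and *Bglap*, but on most cells for *Runx2* and *Tnc*. Of the 111 members, 68 held exactly 2 of the 7 bone genes, and in 34 of those 68 the pair was *Sp7* and *Alpl*. The next pairs were *Alpl* with *Spp1* in 13 cells and *Alpl* with *Ifitm5* in 6.

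**Figure D1:**
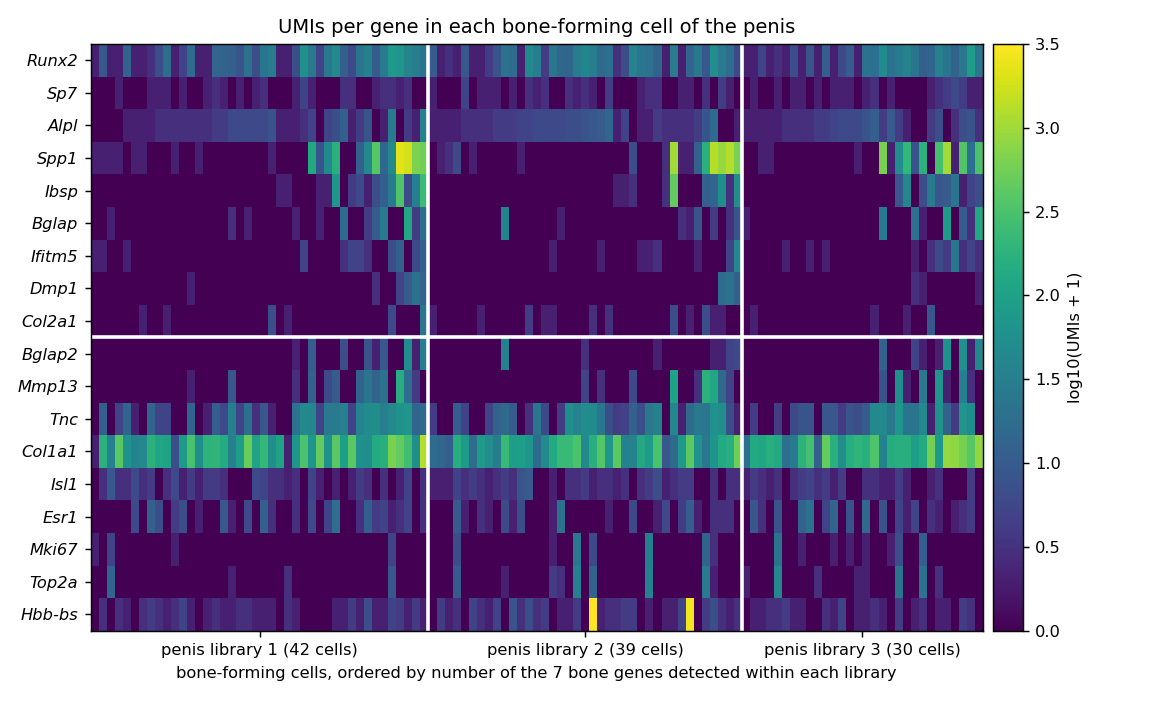
UMIs of 18 genes (rows) in each of the 111 bone-forming cells (columns), as log10(UMIs + 1), with white lines between the 3 penis libraries and below the genes of the rule. Cells are ordered by the number of the 7 bone genes they held. *Runx2* and *Col1a1* are seen in nearly all columns, while *Ibsp*, *Bglap*, *Mmp13* and *Bglap2* are bright in a few columns at the right of each library, and 2 columns of library 2 are bright for *Hbb-bs*.

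The threshold of 2 bone genes divided cells as follows, given without a test. Just outside it, 93, 110 and 92 cells held *Runx2* and 1 of the 7 genes. Their *Runx2* level was 213, 311 and 399 CPM, against 563, 1029 and 447 CPM in members with exactly 2 genes and 2321, 1219 and 2339.8 CPM in the 17, 13 and 13 members with 3 or more. *Mmp13*, which encodes the collagenase of bone and late cartilage and is not a gene of the rule, stood at 0.833, 1.58 and 0.952 CPM just outside, 26, 30.3 and 0 CPM with 2 genes and 1216, 2248 and 1176 CPM with 3 or more. *Mef2c*, a transcription factor of maturing cartilage and bone, stood at 73.3, 139 and 122 CPM just outside, 83.8, 283 and 171 CPM with 2 genes and 678, 501 and 658 CPM with 3 or more, where cells without a *Runx2* UMI had 90.4, 89.8 and 95.6 CPM. For both genes the members with 2 bone genes overlapped with the cells just outside and lay below every library's members with 3 or more. *Dlx5*, a homeobox gene of the osteoblast line, stood at 70.0, 41.9 and 39 CPM with 1 gene, 78, 57.8 and 90.3 CPM with 2 and 97.5, 73.9 and 82.2 CPM with 3 or more, against 19.1, 19.3 and 20.0 CPM in cells without *Runx2*, so its values with 2 and with 3 or more genes overlapped. *Isl1*, a LIM-homeobox gene of genital mesenchyme, stood at 168, 149 and 156 CPM with 2 genes and 107, 137 and 75.9 CPM with 3 or more, both below the 204, 204 and 209 CPM of cells without *Runx2*.

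**Figure D2:**
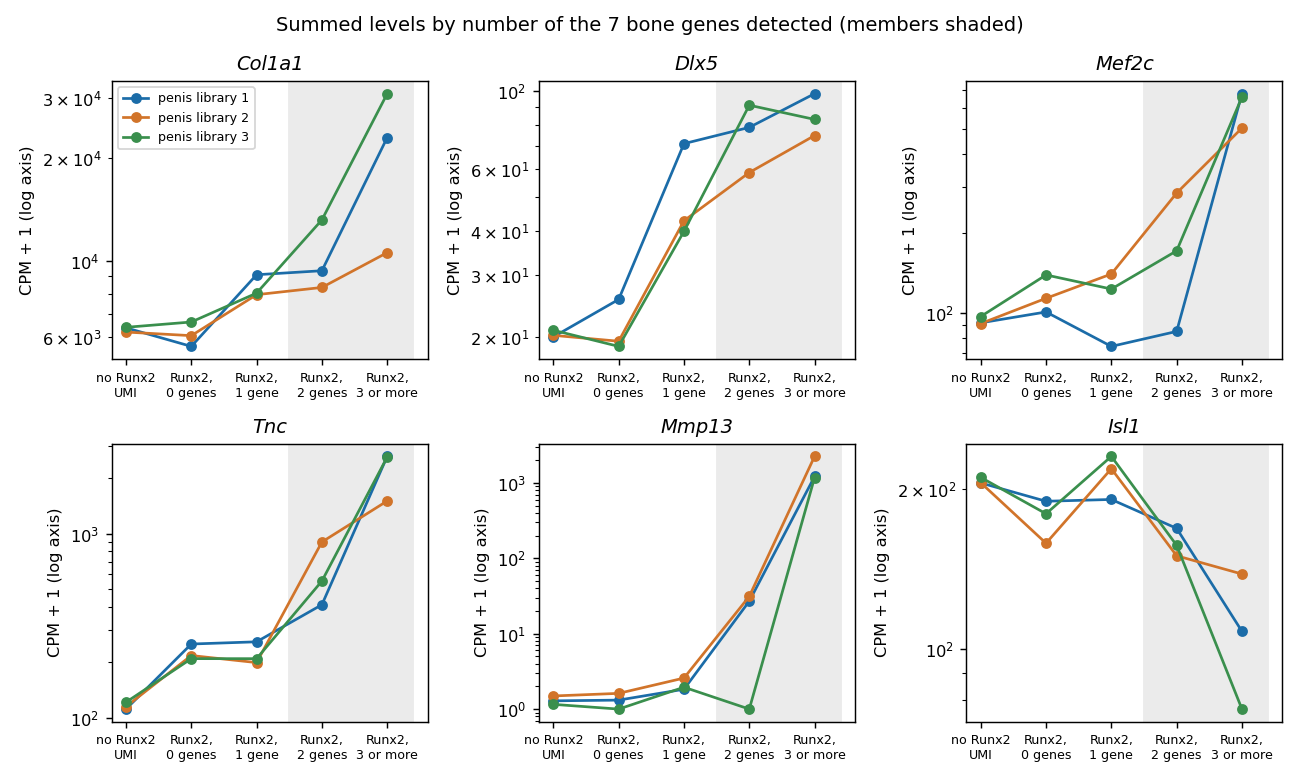
Summed level (CPM + 1, log axis) of 6 genes outside the rule by the number of the 7 bone genes a cell held, with 1 line per penis library. Members are the 2 shaded steps. *Mef2c* and *Mmp13* are highest at the last step in all 3 libraries, *Dlx5* is higher from the step with 1 gene on, and *Isl1* is lower at the last step than in cells without *Runx2*.

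To ask what the bone-forming cells share beyond the genes of the rule, UMIs were summed per library over the members and over the 19518 other kept penis cells, and compared within libraries with edgeR's quasi-likelihood test and Benjamini-Hochberg adjustment. A gene was called at an adjusted p under 0.01 and a log2 fold-change over 1 in size. Of 18175 genes tested, 319 were called higher in the bone-forming cells (1.76%) and 698 lower (3.84%), or 1.63% and 3.8% when the change had to go the same way in every library. DESeq2 with the same design and size factors called 281 higher and 300 lower. These shares of edgeR are given beside the counts of each gene list below. The rule chose the cells by bone genes, and the lists were chosen with earlier results of these data known. The list counts of this comparison are therefore a description and support nothing about a list. The median log2 fold-change over all genes tested was -0.14. Members were also chosen on a random part of each cell's UMIs and tested on the rest: 251 genes were then called higher and 517 lower, of which 209 and 339 were among those above. This removes only the counting noise that the choice and the test share. Genes that go with the rule's genes are high in the chosen cells in either part. The split therefore cannot tell which calls follow from the rule. Against only those other cells that held a UMI of *Pdgfra*, a mesenchymal receptor, and met the limits on *Col2a1* and macrophage genes, 343 were higher and 514 lower. The fit found 1 spread for all genes, on which the standard errors and the very small p-values below rest. A second fit, chosen after these results were seen, let outlying genes have a spread of their own and called 312 higher and 681 lower. Of 68 called genes named for this comparison, 5 lost their call in it.

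The number of calls changed most when library 3 was left out. Without library 1 there were 285 higher and 524 lower, without library 2 274 and 496, and without library 3 23 and 6, with 2255 genes at an unadjusted p under 0.05 in that fit against 3687 with all libraries. The fit itself also changed. Its prior degrees of freedom, the weight of the spread shared over genes, were 4.38 without library 3. They were infinite with all libraries and without library 1 or 2. A call lost without library 3 therefore need not mean a smaller difference, and the levels per library are given below. Of 68 called genes named below for this comparison, 13 kept their call whichever library was left out and 55 lost it in the changed fit without library 3. The 13 were the bone and cartilage genes *Bglap2*, *Mmp13*, *Tnc*, *Tnn*, *Pcolce*, *Pth1r*, *Sox6* and *Col11a1*, with *Gpx3* and *Pcp4*, all higher, and *Lyz2*, *Pf4* and *Psca*, all lower. *Lyz2* and *Pf4* are myeloid genes, whose lower level follows from the rule, which kept cells with macrophage genes out of the members.

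Matrix genes of bone were higher in the members. Of the genes that recur below, *Tnc* (ENSMUSG00000028364) lies on GRCm38 chromosome 4 at 63959785 to 64047015, *Mmp13* (ENSMUSG00000050578) on chromosome 9 at 7272514 to 7283331, *Esr1* (ENSMUSG00000019768) on chromosome 10 at 4611593 to 5005614 and *Isl1* (ENSMUSG00000042258) on chromosome 13 at 116298281 to 116309689, each a protein-coding gene by GENCODE. In the list of bone matrix proteins 8 of 11 tested genes were called higher and 0 lower, with a median log2 fold-change of 1.93. The count and the median include *Bglap2* and *Bglap3*, which are no independent result, as explained below. Tenascin-C (*Tnc*), a matrix protein around bone-forming mesenchyme, stood at 1260.5, 1107 and 1460.3 CPM in the members of the 3 libraries and at 118, 118 and 126 CPM in the other cells (log2 fold-change 3.42 ± 0.12 (SE), adjusted p = 3.24e-185). Collagen XXII (*Col22a1*) stood at 44.5, 10.9 and 50.4 CPM against 0.588, 0.516 and 0.429 CPM (log2 fold-change 5.99 ± 0.53 (SE), adjusted p = 1.39e-27). Both genes were higher in 3 of 3 libraries, as were 296 of the 319 genes called higher. The osteocalcin copies *Bglap2* (201, 86.8 and 492 CPM against 0.706, 0.635 and 0.507) and *Bglap3* (17.8, 5.43 and 44.8 against 0.118, 0.207 and 0.156) were also called higher, but they are near-identical neighbours of *Bglap*, which the rule used, so reads can be split between them and they are no independent result. *Col1a1*, the main chain of bone collagen, is added here after its values were seen. It stood at 14576, 9116 and 21007 CPM against 6204, 6068 and 6276, higher in 3 of 3 libraries, with a log2 fold-change of 1.22 ± 0.08 (SE). Its call was lost when the gene had its own spread (adjusted p = 0.31), as was that of *Bglap2* (adjusted p = 0.041), whose level rests on few cells.

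Mineralization genes were higher as well. In the list of mineralization enzymes and transporters 6 of 8 tested genes were called higher and 0 lower, with a median log2 fold-change of 2.64. *Smpd3*, the sphingomyelinase that bone mineral needs, stood at 130.0, 34.4 and 168 CPM against 3.79, 4.63 and 5.5 in the other cells (log2 fold-change 4.47 ± 0.28 (SE), adjusted p = 2.11e-56). *Enpp1*, which makes pyrophosphate, a brake on mineral growth, stood at 97.9, 57.9 and 89.5 CPM against 8.88, 9.12 and 8.39 (log2 fold-change 3.22 ± 0.26 (SE), adjusted p = 4.40e-33). The amino acid transporter *Slc36a2* stood at 67.7, 43.4 and 69.9 against 1.06, 1.68 and 1.7 CPM, and the phosphate-regulating peptidase *Phex* at 17.8, 57.9 and 44.8 against 4.68, 4.83 and 4.25 CPM, with log2 fold-changes of 5.38 and 3.07. All 4 genes were higher in 3 of 3 libraries, as were most genes called higher. Library 2 was the lowest for *Smpd3* and *Slc36a2* and the highest for *Phex*. For *Enpp1* and *Smpd3* the higher level lay mostly in the members that held *Ibsp* or *Bglap*: in the 63 members with neither, *Enpp1* stood at 22.9, 8.6 and 0 CPM and *Smpd3* at 3.27, 22.9 and 9.68 CPM, which overlapped with the levels of the other cells. *Phospho1*, the phosphatase of mineralizing vesicles, had no UMI in any member.

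Of the transcription factors that act in osteoblasts, 6 of 14 tested genes were called higher and 0 lower, with a median log2 fold-change of 0.99. *Runx3*, a relative of *Runx2*, stood at 37.4, 52.5 and 42 CPM against 5.38, 4.56 and 5.15 (log2 fold-change 3.15 ± 0.38 (SE), adjusted p = 3.60e-15). The homeobox pair *Dlx5* and *Dlx6*, neighbours in the genome, were both higher, *Dlx5* at 85.5, 63.3 and 86.7 CPM against 20.0, 19 and 19.8 (log2 fold-change 2.01) and *Dlx6* at 49.9, 52.5 and 75.5 CPM against 11.9, 12.7 and 13.4 (log2 fold-change 2.22). These 3 genes were each higher in 3 of 3 libraries, as were most genes called higher. Among genes that fold, modify and cut procollagen on its way out of the cell, 4 of 16 tested genes were called higher and 0 lower, with a median log2 fold-change of 0.40. The 4 that were higher were the lysyl hydroxylase *Plod2* (log2 fold-change 2.17), the prolyl hydroxylase subunit *P4ha2* (1.91), the procollagen C-proteinase *Bmp1* (1.11) and its enhancer *Pcolce* (1.68), each in 3 of 3 libraries.

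Wnt and BMP genes were called in both directions. In Wnt signalling 5 of 15 tested genes were called higher and 3 lower, with a median log2 fold-change of 0.71. The antagonist *Dkk1* (14.2, 1.81 and 8.39 CPM against 0.456, 0.339 and 0.507) and the ligand *Wnt10b* (10.7, 34.4 and 11.2 against 2.21, 2.29 and 1.93) were higher, while the secreted antagonist *Sfrp2* (125, 68.7 and 69.9 against 540.2, 503 and 498) and the agonist *Rspo2*, with 3 UMIs in all members, were lower. *Rspo2* was 11.5-fold lower, with an exact 95% counting interval of 3.95 to 56. In BMP signalling 1 of 18 tested genes were called higher and 3 lower, with a median log2 fold-change of -0.33. The ligands *Bmp4* and *Bmp6* were lower (log2 fold-changes -2.02 and -2.39) as was *Bmp2* (-1.30), and *Bmp5* was higher (62.3, 128 and 61.5 CPM against 22.6, 21.1 and 22.7, log2 fold-change 1.95 ± 0.21 (SE), adjusted p = 1.38e-18). Of the hedgehog genes, 2 of 9 tested genes were called higher and 0 lower, with a median log2 fold-change of 0.18. The higher ones were *Ptch1* and *Hhip*, both membrane proteins that bind hedgehog ligands and are themselves induced by the pathway, at log2 fold-changes of 2.36 and 1.31. In the fit on members with 3 or more bone genes the value of *Hhip* was -2.02 and below the call. The ligands *Ihh* and *Shh* had no UMI in the members, where 3 UMIs would be 2.04 CPM.

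Among hormone and growth factor receptors 5 of 15 tested genes were called higher and 0 lower, with a median log2 fold-change of 0.26. The vitamin D receptor *Vdr* stood at 99.7, 16.3 and 120.3 CPM against 10.8, 8.81 and 9.62 (log2 fold-change 2.87 ± 0.27 (SE), adjusted p = 3.39e-24), with the members of library 2 far below those of libraries 1 and 3 but still above the other cells. The parathyroid hormone receptor *Pth1r* stood at 185, 143 and 215 against 37.7, 33.7 and 36.7 CPM (log2 fold-change 2.34 ± 0.15 (SE), adjusted p = 3.30e-51), and the leukaemia inhibitory factor receptor *Lifr* at 212, 128 and 207 against 48.9, 49 and 55.9 CPM. In the members with neither *Ibsp* nor *Bglap*, *Lifr* stood at 78.4, 57.3 and 24.2 CPM, which overlapped with the levels of the other cells. The oestrogen receptor *Esr1* stood at 207, 141 and 316 CPM against 85.9, 83.6 and 88.9 (log2 fold-change 1.32 ± 0.13 (SE), adjusted p = 3.22e-21), higher in 3 of 3 libraries. For the signals by which osteoblasts act on osteoclasts and vessels, 3 of 9 tested genes were called higher and 0 lower, with a median log2 fold-change of 0.60. *Mmp13* stood at 482, 790.4 and 520.4 CPM against 1.68, 0.708 and 0.546, a log2 fold-change of 9.30 ± 0.17 (SE) and the largest among genes named here, and 3 cells held 50.4% of its 894 UMIs. Its call was lost when the gene had its own spread (adjusted p = 0.051). RANKL (*Tnfsf11*), which drives osteoclast formation, stood at 24.9, 21.7 and 16.8 against 2.41, 1.84 and 2.11 CPM, and its decoy receptor *Tnfrsf11b* at 7.12, 16.3 and 11.2 against 1.98, 2.32 and 1.78 CPM on 17 UMIs in the members, with log2 fold-changes of 3.36 and 2.50. Of the osteocyte genes 2 of 6 tested genes were called higher and 1 lower, with a median log2 fold-change of 0.09: *Dkk1* and *Phex* were higher, *Capg* was lower (-1.0), and *Sost* and *Fgf23* had no UMI in the members.

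Cartilage genes were in part higher than in the other cells, although cells rich in *Col2a1* were kept out. Of the cartilage list 7 of 15 tested genes were called higher and 0 lower, with a median log2 fold-change of 0.98. *Sox6*, a partner of SOX9, stood at 486, 651 and 380.5 CPM against 62.1, 59.7 and 77.4 (log2 fold-change 2.96 ± 0.12 (SE), adjusted p = 7.47e-121). *Acan*, the main cartilage proteoglycan, stood at 99.7, 165 and 67.1 against 22.7, 29.3 and 26.1 CPM, *Col11a2* at 185, 39.8 and 190.2 against 17.2, 18.1 and 22 and *Col11a1* at 482, 499 and 557 against 133, 138 and 153, at log2 fold-changes of 2.11, 2.76 and 1.88. In the members with neither *Ibsp* nor *Bglap*, *Col11a2* stood at 6.53, 20.1 and 14.5 CPM, which overlapped with the levels of the other cells. Of the genes of late, hypertrophic cartilage, 3 of 6 tested genes were called higher and 0 lower, with a median log2 fold-change of 0.96: *Mmp13*, the channel gene *Panx3* (30.3, 47 and 56 against 2.35, 3.26 and 3.78 CPM) and *Pth1r* were higher, and *Ihh* had no UMI. Most genes of the fibroblast list were lower. In the fibroblast list 1 of 11 tested genes were called higher and 7 lower, with a median log2 fold-change of -1.30. *Dpt* stood at 74.8, 23.5 and 44.8 CPM against 249, 269.8 and 259.8, and *Mfap5*, *Clec3b* and *Pi16* had log2 fold-changes of -2.23, -2.22 and -2.05. *Mfap5* lost its call when it had its own spread (adjusted p = 0.25). The small proteoglycan *Lum* was the gene of this list that was higher (1244, 566 and 951 CPM against 273, 271 and 259). Among tendon genes 2 of 5 tested genes were called higher and 1 lower, with a median log2 fold-change of -0.24, with *Fmod* (1.76) and *Mkx* (1.73) higher and *Thbs4* (-1.86) lower. With 3 or more bone genes required the value of *Mkx* was -0.011. In the list of osteochondral progenitor genes 0 of 9 tested genes were called higher and 2 lower, with a median log2 fold-change of 0.22, the lower ones being *Acta2* (-2.32) and *Nes* (-1.36).

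Of the patterning genes of genitals and limbs, 0 of 22 tested genes were called higher and 4 lower, with a median log2 fold-change of -0.13. Among those lower were *Sim1* (-2.57), *Alx1* (-1.81) and *Tbx5* (-1.10). *Isl1* stood at 144, 145 and 120.3 CPM in the members and 197, 196 and 202 CPM in the other cells, lower in 3 of 3 libraries but short of the fold set for a call (log2 fold-change -0.50 ± 0.14 (SE), adjusted p = 0.0031). Of the cell division genes 0 of 12 tested genes were called higher and 0 lower, with a median log2 fold-change of 0.69. Their summed level ran from 326 to 926 CPM in the members and from 395 to 440 CPM in the other cells, and *Mki67* had a UMI in 4, 7 and 8 members of the 3 libraries.

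Markers of other cell types were mostly lower in the members but not absent. The 7 immune genes summed to 12.5 to 23.5 CPM in the members against 312 to 368 CPM in the other cells, and the 6 endothelial genes to 19.6 to 85.0 against 392 to 431 CPM. All 7 immune and all 6 endothelial genes were called lower, where the rule had already dropped cells with macrophage genes. The 7 keratinocyte genes summed to 45.2, 97.9 and 475 CPM in the members from the lowest to the highest library (574 to 624 CPM in the other cells), and the 6 glial genes to 10.9, 11.2 and 187 CPM (398 to 474 CPM). In the keratinocyte list 1 of 7 tested genes were called higher and 4 lower, with a median log2 fold-change of -1.21, and in the glial list 0 of 6 tested genes were called higher and 4 lower, with a median log2 fold-change of -2.92. Some immune, endothelial and glial genes called lower were near 0: 1 UMI of *Laptm5*, 2 each of *Ptprc*, *Coro1a*, *Cdh19* and *Erbb3* and 3 of *Cldn5* in all members. Such genes entered the test only through the other cells, so the counts of these lists are no support. The 7 pericyte and smooth muscle genes summed to 115 to 221 CPM against 371 to 422 CPM, where 1 of 7 tested genes were called higher and 5 lower, with a median log2 fold-change of -1.65. None of the 5 osteoclast genes and 3 muscle genes tested was called, and *Dcstamp* and *Ocstamp*, which osteoclasts need to fuse, had no UMI in the members. The 5 red blood cell genes summed to 154, 187 and 19113 CPM in the members against 5500.5 to 7602 CPM. The highest value was that of library 2, where 2 members held 2992 and 2780 UMIs of *Hbb-bs*, and 0 of 5 tested genes were called higher and 3 lower, with a median log2 fold-change of -2.25. Of the members, 13, 7 and 8 held 2 or more genes of an endothelial, keratinocyte, immune or glial list, that is 31.0%, 17.9% and 26.7%. In the other cells, which include cells of those types themselves and are no baseline, the share was 33.2% to 33.7%. Without the members that held such genes 279 genes were called higher and 661 lower. Whether cells caught together in 1 droplet add to the members was not tested, since the doublet caller marked 0, 0 and 4 of the kept penis cells. The median of its score was 0.0697, 0.0704 and 0.0553 in the members, above the 0.0295, 0.0290 and 0.0256 of the other kept cells.

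**Figure D3:**
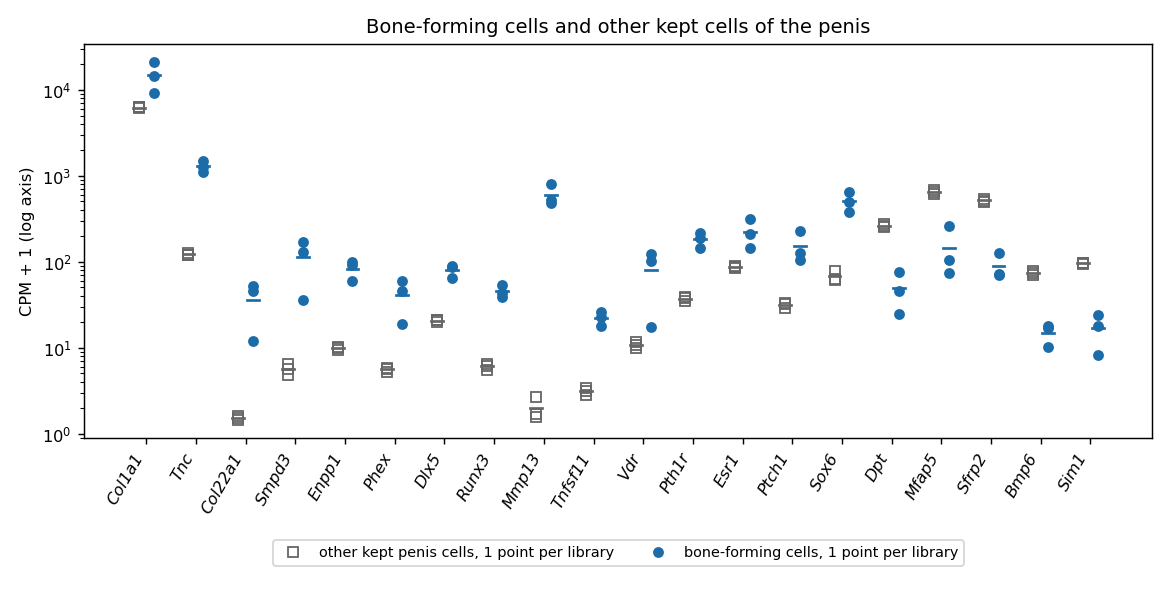
Level (CPM + 1, log axis) of 20 genes in the bone-forming cells (filled circles) and in the other kept penis cells (open squares), with 1 point per library and a bar at the mean of the 3. The other cells lie close together, the members spread more widely, and for the matrix, mineralization, transcription factor and receptor genes shown all 3 members' points lie above those of the other cells, as for *Tnc* at 1260.5, 1107 and 1460.3 CPM.

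The leading genes were the 10 with the largest fold-change in each direction among called genes at 50 CPM or more in every library of the higher set. Among those higher were *Mmp13*, *Bglap2*, *Tnn*, *Dapk2*, *Gpx3*, *Spock1*, *Tnc*, *Pcp4* and *Enpp1*. *Tnn*, which encodes tenascin-W, a matrix protein of forming bone, stood at 185, 244 and 243 CPM against 5.25, 5.78 and 6.01 (log2 fold-change 5.32 ± 0.17 (SE), adjusted p = 3.57e-216). The death-associated kinase *Dapk2* stood at 173, 72.3 and 209.8 against 3.44, 4.06 and 3.92 CPM. The secreted glutathione peroxidase *Gpx3*, the proteoglycan *Spock1* and the calmodulin-binding peptide *Pcp4* had log2 fold-changes of 3.52, 3.47 and 3.27. The 10 leading genes that were lower were the myeloid genes *S100a8*, *S100a9*, *Lyz2*, *Pf4*, *Srgn* and *Fcer1g*, the epithelial *Psca* and *Krt14*, the endothelial *Cldn5*, and *Rapgef5*. The rule kept cells with macrophage genes out of the members and not out of the other cells, so the lower myeloid genes are no independent result. The members held 1 UMI of *S100a9* and 3 each of *Pf4*, *Srgn* and *Cldn5*. These 4 genes passed the filter on low counts only through the other cells. Against the *Pdgfra* cells alone *Fcer1g* was higher instead, by 1.24 on the log2 scale. *Lyz2* stood at 3.56, 3.62 and 0 CPM against 183, 146 and 177 and *Krt14* at 14.2, 3.62 and 14 against 159, 163 and 142 CPM.

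To ask how the bone-forming cells differ from cartilage-like cells, they were compared with the 66 kept penis cells at or above the *Col2a1* limit (26, 24 and 16 in the 3 libraries), of which 9, 12 and 9 would pass the rest of the rule. These cells held a median of 5466, 2112 and 23146 UMIs, so their depth differed between libraries. Described without a test, their *Ibsp* stood at 6373, 3962 and 5091 CPM, above the 1332, 1064 and 358 CPM of the members in every library, while *Bglap* had 3 UMIs in them and 541 in the members. *Runx2* stood at 866, 815 and 1109 CPM in them against 1237, 1094 and 1284 CPM in the members, *Alpl* at 349, 267 and 237 against 287, 260.5 and 271 CPM, and *Sp7* at 105, 62.1 and 57.7 against 55.2, 65.1 and 78.3 CPM. For *Alpl* and *Sp7* the sets overlapped, and for *Runx2* they overlapped by 1 library. *Spp1* stood at 10960.0, 9731 and 8572 CPM in the members against 5326, 6560.0 and 1913 CPM, higher in the members of every library. *Col2a1* itself was the limit between the sets.

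Over 5620 genes tested between these sets within libraries, 260 were called higher in the bone-forming cells (4.63%) and 385 lower (6.85%, or 6.83% when every library had to be lower). The limit on *Col2a1* chose the sets, so genes that go with it had to differ and the cartilage counts are a description. The filter on low counts asks for enough UMIs in as many sums as the smaller set has, so a gene near 0 in 1 set entered only through the other. The counts and medians of every list in this comparison and the 2 that follow are therefore given as a description and support nothing about the list. In the cartilage list 0 of 15 tested genes were called higher and 14 lower, with a median log2 fold-change of -4.82, against 0.02 over all genes tested. *Hapln1*, the link protein of cartilage, stood at 60.5, 92.2 and 109 CPM in the members and 4029, 5581 and 4060.3 CPM in the *Col2a1*-high cells (log2 fold-change -5.92 ± 0.23 (SE), adjusted p = 8.87e-09). *Col9a3*, *Comp* and *Matn3*, further matrix proteins of cartilage, had log2 fold-changes of -6.18, -6.18 and -6.87. *Matn1* had 0 UMIs in the members and 242 in the *Col2a1*-high cells, at least 136-fold lower in the members against a floor of 3 UMIs over the set. Of the hypertrophic genes, 0 of 6 tested genes were called higher and 4 lower, with a median log2 fold-change of -3.32. *Col10a1*, the collagen of hypertrophic cartilage, stood at 5.34, 27.1 and 5.6 CPM against 3279, 5442 and 1557 (log2 fold-change -8.34 ± 0.31 (SE), adjusted p = 7.80e-09), *Panx3* at 30.3, 47 and 56 against 448, 599 and 569.9 CPM, and *Ihh* had 0 against 192 UMIs and was at least 108-fold lower. Beside these, *Snorc*, a proteoglycan gene of chondrocytes (3.56, 3.62 and 2.8 CPM against 2591, 2767 and 1343), *Smim5* and *Dhx58os* were among the 10 leading genes that were lower.

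Several genes of mesenchyme and some of bone were higher than in the *Col2a1*-high cells. In the fibroblast list 7 of 8 tested genes were called higher and 0 lower, but the *Col2a1*-high cells of the 3 libraries held few UMIs of some of the 7: none of *Ly6a*, 3, 0 and 3 of *Mfap5*, 4, 4 and 4 of *Cd34* and 10, 5 and 2 of *Pdgfra*. *Dcn* stood at 2391, 1794 and 2412 CPM against 458, 263 and 492 (log2 fold-change 2.28 ± 0.19 (SE), adjusted p = 9.71e-06), and *Pdgfra* at 101, 114 and 120.3 against 32.9, 18.3 and 6.78 CPM (log2 fold-change 2.32 ± 0.41 (SE), adjusted p = 0.0015). Among the osteoblast transcription factors 3 of 12 tested genes were called higher and 1 lower, with a median log2 fold-change of 0.99. *Dlx6* was among the higher ones, with a log2 fold-change of 1.68 on 3, 4 and 7 UMIs in the *Col2a1*-high cells, so that it too entered through the members, whereas *Mef2c*, a factor that drives hypertrophy, was lower (312, 358 and 386 against 958, 1049 and 1296 CPM, log2 fold-change -1.83 ± 0.19 (SE), adjusted p = 4.13e-05). *Bglap2* had 337 UMIs in the members and 1 in the *Col2a1*-high cells, but its reads may be split with those of *Bglap*. In the list of bone matrix proteins 3 of 9 tested genes were called higher and 1 lower, with a median log2 fold-change of 0.60. Of the receptors, *Esr1* was higher (207, 141 and 316 CPM against 112, 18.3 and 50.9, log2 fold-change 1.73 ± 0.35 (SE), adjusted p = 0.0038) and *Pth1r* lower (185, 143 and 215 against 1099.5, 1012 and 1214, log2 fold-change -2.82 ± 0.20 (SE), adjusted p = 2.25e-06), as was *Fgfr3* (-2.31). Both *Pth1r* and *Smpd3* were thus above the other penis cells in the bone-forming cells and still below the *Col2a1*-high cells, where *Smpd3* stood at 421, 460.5 and 465 CPM.

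The axon guidance receptor *Unc5d* had 177 UMIs in the bone-forming cells (169, 70.5 and 120.3 CPM) and none in the *Col2a1*-high cells, at least 35-fold higher against a floor of 3 UMIs over the set. The other leading genes by the same rule were *Bglap2*, the adhesion gene *Cntn4*, *Mfap5*, the protease *Pcsk5*, *Ostn* (osteocrin, a peptide made by bone cells), *Limch1*, *Ctnnd2*, *Kctd16* and the calcium channel *Ryr3*. *Ostn* stood at 173, 203 and 58.7 CPM against 9.88, 0 and 17 (log2 fold-change 3.68 ± 0.59 (SE), adjusted p = 8.19e-04), on 3, 0 and 5 UMIs in the *Col2a1*-high cells. *Pcsk5* (4, 0 and 0 UMIs there), *Ctnnd2* (7, 0 and 0) and *Cntn4* (0, 1 and 4) were as low, so these genes entered the test only through the members. The same may hold for *Kctd16*, *Ryr3* and *Limch1*. Of the 12 cell division genes only *Top2a* and *Pcna* passed the filter on low counts, *Top2a* through the members alone, so their calls say little of the list. *Top2a* stood at 42.7, 215 and 246 CPM against 6.58, 0 and 3.39, on 3 UMIs in the *Col2a1*-high cells, and *Pcna* at 78.3, 134 and 92.3 against 32.9, 43.9 and 30.5 CPM. Of the 23 patterning genes, 5 of 11 tested genes were called higher and 0 lower: *Tbx2*, *Tbx4*, *Pitx1*, *Prrx1* and *Prrx2*. In the *Col2a1*-high cells *Tbx2* had 3, 4 and 0 UMIs, *Tbx4* 5, 2 and 0 and *Pitx1* 6, 2 and 4, so these 3 entered only through the members. The lists of collagen folding and BMP signalling had 4 of 15 and 3 of 14 genes lower and none higher, among them *Bmp6* (16, 9.04 and 16.8 CPM against 359, 384 and 343, log2 fold-change -4.89 ± 0.29 (SE), adjusted p = 4.12e-07). DESeq2 called 152 higher and 289 lower, and leaving out 1 library gave 122 to 414 higher and 287 to 435 lower, the lowest counts without library 3 and the highest without library 1. Of 41 called genes named for this comparison, 30 kept their call whichever library was left out. *Pdgfra*, *Esr1*, *Pcsk5*, *Slc36a2* and the 4 patterning genes other than *Prrx1* lost it without library 3, *Bmp2* lost it without library 2, and *Dlx6* and *Pcna* lost it in each of the 3 fits.

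**Figure D4:**
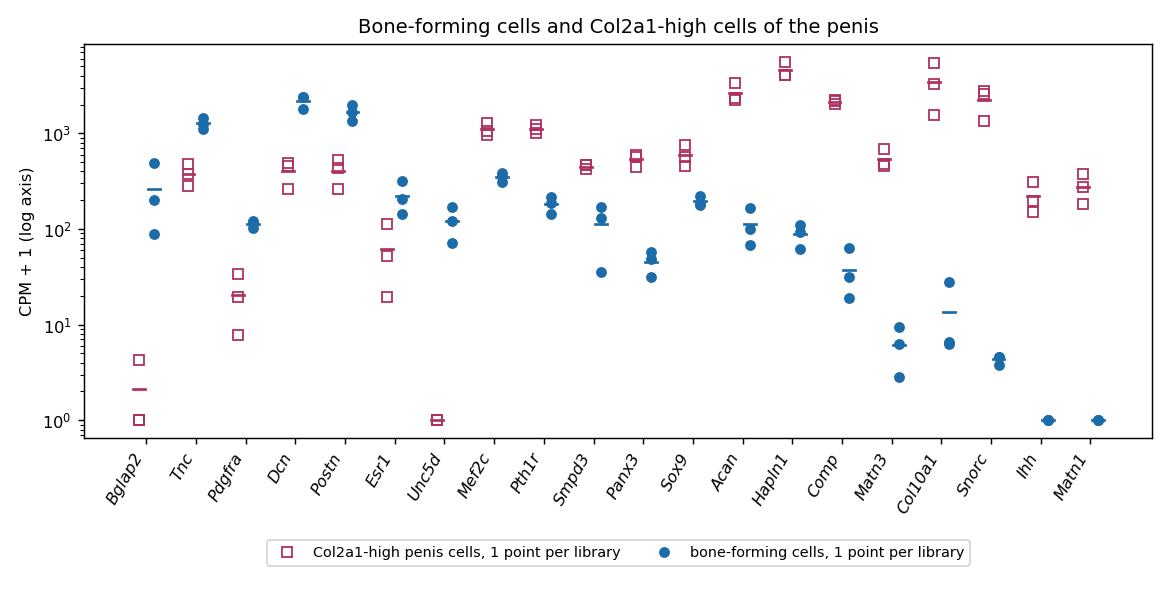
Level (CPM + 1, log axis) of 20 genes in the bone-forming cells (filled circles) and the *Col2a1*-high penis cells (open squares), with 1 point per library and a bar at the mean of the 3. From *Bglap2* to *Unc5d* the bone-forming cells lie higher, and from *Mef2c* to *Matn1* they lie lower, down to *Matn1* and *Ihh*, which had no UMI in them.

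To ask how the cells compare with bone-forming cells elsewhere, the same gene rule was applied to the kept limb cells and found 49 in the forelimb (0.189% of 25865 cells, exact 95% interval 0.140 to 0.250) and 43 in the hindlimb (0.180% of 23945, 0.130 to 0.242). These limb cells held a median of 6684 and 8043 UMIs. They carried *Ibsp* (2049 and 1399 CPM) and *Ifitm5* (329.6 and 243 CPM), but *Bglap* in 2 and 0 cells, and *Spp1* stood at 467 and 552 CPM there against 10960.0, 9731 and 8572 CPM in the penis, values that are given without a test. The limb cells were kept by wider limits than the penis cells. The limits were 100 to 9000 (forelimb) or 100 to 9500 (hindlimb) detected genes and at most 10% mitochondrial UMIs. Under the penis limits 37 forelimb and 30 hindlimb cells passed the rule. The penis and limb libraries differ in tissue and in age, which cannot be told apart, and the limb group is 2 libraries of 2 tissues. Whether the 2 limb libraries share embryos is not given. The sets also differ in make-up. Cells with *Ibsp* or *Bglap* were 20 of 42, 15 of 39 and 13 of 30 in the penis libraries. They were 16 of 49 in the forelimb and 9 of 43 in the hindlimb.

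Of 7880 genes tested between 3 penis and 2 limb libraries, 213 were called higher in the penis cells (2.7%) and 118 lower (1.5%), 4.2% in either direction. Leaving out 1 library left 75 to 225 and 39 to 103 calls, with the lowest count of higher genes without the hindlimb and of lower genes without penis library 1. With the penis limits on the limb cells, 147 genes were called higher and 97 lower of 6769 tested. Of 44 called genes named for this comparison, 22 kept their call whichever library was left out and 9 lost it in the fit with a spread of their own for outlying genes. *Isl1* had 204 UMIs in the penis members (144, 145 and 120.3 CPM) and none in the limb members, at least 45-fold higher against a floor of 3 UMIs over the limb group. The other kept cells showed the same contrast, at 197, 196 and 202 CPM in the penis and 0.265 and 2.56 CPM in fore- and hindlimb. *Esr1* stood at 207, 141 and 316 CPM in penis and 4.17 and 8.09 CPM in limb members (log2 fold-change 5.19 ± 0.49 (SE), adjusted p = 1.54e-04), on 2 and 4 UMIs in the latter, and in the other kept cells at 85.9, 83.6 and 88.9 CPM in the penis against 3.84 and 6.81 CPM in the limbs. *Lifr* stood at 212, 128 and 207 against 35.5 and 20.2 CPM (log2 fold-change 2.80 ± 0.34 (SE), adjusted p = 7.25e-04), where the other kept cells had 48.9, 49 and 55.9 CPM in the penis against 31.4 and 30.7 CPM in the limbs. *Isl1* and *Esr1* entered the test only through the penis cells, where they are high.

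Matrix genes of bone were higher in the penis cells or not called. Of the genes in this paragraph, *Sparc*, *Col1a2*, *Bglap2*, *Mmp13*, *Enpp1* and *Slc36a2* were also called higher in penis members with *Ibsp* or *Bglap* (below). Such members were a larger share of the penis sets, and whether this adds to the differences was not tested. In the list of bone matrix proteins 4 of 10 tested genes were called higher and 0 lower, with a median log2 fold-change of 1.06, against 0.00 over all genes tested. *Sparc* (osteonectin) stood at 6281, 4404 and 6935 CPM against 1928 and 1698 (log2 fold-change 1.79 ± 0.20 (SE), adjusted p = 3.97e-04), and *Tnc* at 1260.5, 1107 and 1460.3 against 171 and 245 CPM (log2 fold-change 2.72 ± 0.22 (SE), adjusted p = 7.22e-05). *Col1a2* stood at 10664, 6868 and 13831 against 4358 and 5042 CPM (log2 fold-change 1.25), and lost its call without 4 of the 5 libraries in turn. *Bglap2* had 337 UMIs against 1 and lost its call when it had its own spread (adjusted p = 0.089). *Sparc* and *Tnc* kept their calls in every such fit. *Mmp13* was higher in the penis (482, 790.4 and 520.4 CPM against 169 and 72.8, log2 fold-change 2.41 ± 0.35 (SE), adjusted p = 0.0017), a call lost without the hindlimb, as were *Slc36a2* and *Enpp1* among the mineralization genes (log2 fold-changes 2.92 and 1.70), whose calls were lost without 3 and 4 of the 5 libraries in turn. Of the osteoblast transcription factors 0 of 12 tested genes were called higher and 1 lower, with a median log2 fold-change of -0.02: the lower one was *Twist1*, a brake on RUNX2 (135, 145 and 154 against 361 and 334 CPM, log2 fold-change -1.16 ± 0.18 (SE), adjusted p = 0.0024), whose call was lost without 3 of the 5 libraries in turn.

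Some genes of connective tissue were higher in the penis cells. *Dcn* stood at 2391, 1794 and 2412 CPM against 451 and 137, a call lost with a spread of its own (adjusted p = 0.046), *Postn* (periostin) at 1349.5, 1668 and 1972 against 334 and 437 (log2 fold-change 2.21 ± 0.22 (SE), adjusted p = 1.81e-04), *Fmod* at 217, 174 and 297 against 45.9 and 30.3, the chemokine *Cxcl12* at 179.8, 119 and 179 against 27.1 and 28.3 (log2 fold-change 2.61 ± 0.30 (SE), adjusted p = 5.16e-04) and the BMP antagonist *Grem1* at 53.4, 57.9 and 53.2 against 4.17 and 12.1. In the lists of fibroblast, osteochondral progenitor and tendon genes 3 of 10, 4 of 9 and 2 of 2 tested genes were higher and none lower, where *Ly6a* had 1 UMI and *Grem1* 2 and 6 UMIs in the limb members and 2 of the 5 tendon genes could be tested. Lower in the penis cells were *Bmp2*, the BMP inhibitor *Smad7* and the BMP target *Id1* (log2 fold-changes -2.13, -1.76 and -1.26), *Ptch1* (126, 228 and 104 CPM against 373 and 566, log2 fold-change -1.49 ± 0.30 (SE), adjusted p = 0.0092), the growth factor receptor *Igf1r* (189, 235 and 185 against 446 and 503) and the limb patterning gene *Tbx15* (35.6, 21.7 and 16.8 against 159 and 129, log2 fold-change -2.38 ± 0.30 (SE), adjusted p = 8.55e-04). *Ptch1* was therefore above the other penis cells in the bone-forming cells and below the limb cells of the same rule, but the second call was lost without 4 of the 5 libraries in turn, as were those of *Igf1r* and *Id1*, and that of *Bmp2* without each of the 5.

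The leading genes in the penis cells were, beside *Isl1*, *Bglap2* and *Esr1*, the neural adhesion and synapse genes *Dner* and *Lrrtm4*, the matrix genes *Sparcl1*, *Spon2* and *Spock1*, the calcium-binding *S100a1* and the phosphodiesterase *Pde1a*. *S100a1* stood at 110.4, 130.2 and 123 CPM against 8.34 and 8.09 (log2 fold-change 3.94 ± 0.33 (SE), adjusted p = 7.45e-05) and *Lrrtm4* at 194, 121 and 139.9 against 2.09 and 6.06 (log2 fold-change 5.23 ± 0.46 (SE), adjusted p = 1.04e-04). The limb members held 4 and 4 UMIs of *S100a1* and 1 and 3 of *Lrrtm4*, so both entered the test only through the penis cells. The leading genes in the limb cells were *Hmga2*, *Foxp2*, *Cadm2*, *Erc2*, *Pcdh11x*, *Ebf3*, *Mecom*, *Igf2bp1*, *Dmd* and *Mia*. *Hmga2* and *Igf2bp1* are genes of embryonic growth: *Hmga2* had 2 UMIs in the penis and 231 in the limb members (175-fold lower, with an exact 95% counting interval of 47.8 to 1449.9), and its call was lost when it had its own spread (adjusted p = 0.052), while *Igf2bp1* stood at 5.34, 9.04 and 16.8 CPM against 115 and 146 (log2 fold-change -3.62 ± 0.35 (SE), adjusted p = 1.77e-04). The transcription factors *Mecom* (19.6, 34.4 and 39.2 against 423 and 396 CPM, log2 fold-change -3.65 ± 0.25 (SE), adjusted p = 2.16e-05), *Ebf3* (1.78, 12.7 and 5.6 against 154 and 152, log2 fold-change -4.34 ± 0.40 (SE), adjusted p = 1.30e-04) and *Foxp2* (5.34, 16.3 and 11.2 against 290.0 and 758) were lower in the penis. The hindlimb value of *Foxp2* was above that of the forelimb, while for *Mecom* and *Ebf3* the limb values lay close together. The penis members of the 3 libraries held 3, 5 and 6 UMIs of *Igf2bp1*, 1, 7 and 2 of *Ebf3* and 3, 9 and 4 of *Foxp2*, so these genes, like *Hmga2*, entered the test only through the limb cells. The call of *Hmga2* was lost without penis library 1.

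**Figure D5:**
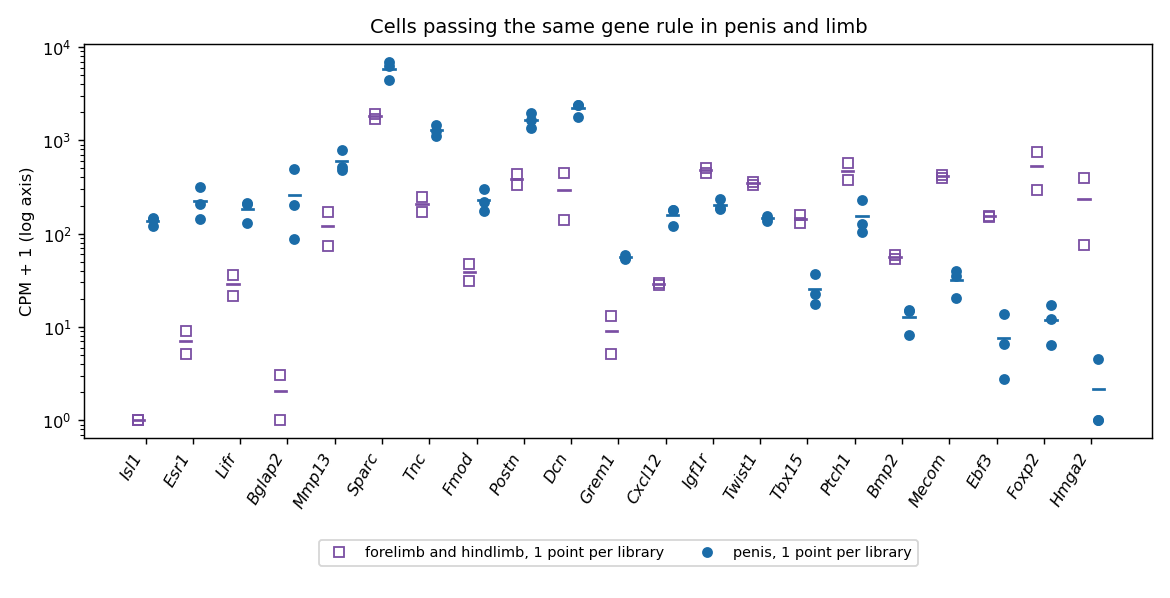
Level (CPM + 1, log axis) of 21 genes in cells passing the same gene rule in the 3 penis libraries (filled circles) and in the forelimb and hindlimb libraries (open squares), with bars at the group means. *Isl1* to *Cxcl12* lie higher in the penis and *Igf1r* to *Hmga2* in the limbs. No gene shown overlaps between the groups, which holds for all 213 genes called higher and all 118 called lower. Called genes were chosen by their difference, and the leading ones also by not overlapping, so this is no further result. The share without overlap among all 7880 genes tested is not given.

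Within the bone-forming cells, the 48 members that held *Ibsp* or *Bglap* (20, 15 and 13 in the 3 libraries) were compared with the 63 that held neither. For the first set 1 UMI of either gene was enough. The 2 sets were of similar depth, with medians of 11432, 13817 and 11490 UMIs against 14084, 13622 and 12196. Over 4441 genes tested, 52 were called higher in the cells with *Ibsp* or *Bglap* (1.17%) and 15 lower (0.338%). *Mmp13* stood at 1014, 2112 and 1233 CPM in them and 39.2, 17.2 and 0 CPM in the cells with neither (log2 fold-change 6.25 ± 0.51 (SE), adjusted p = 3.69e-04), on 12, 6 and 0 UMIs in the latter. The number of bone genes in a cell was part of the rule and of this split, so the 2 sets differ by design in *Ibsp* and *Bglap*. Of the 9 mineralization genes, 6 were tested and 4 called higher: *Enpp1* (188, 142 and 212 against 22.9, 8.6 and 0 CPM), *Slc36a2* (133, 108 and 159 against 13.1, 5.73 and 4.84), *Smpd3* (282, 53.9 and 385 against 3.27, 22.9 and 9.68) and the pyrophosphate exporter *Ank* (211, 186 and 325 against 19.6, 31.5 and 24.2). The cells with neither gene held 7, 3 and 0 UMIs of *Enpp1*, 4, 2 and 1 of *Slc36a2* and 1, 8 and 2 of *Smpd3*, so these 3 genes, like *Mmp13*, passed the filter on low counts only through the set where they are high, and the count of 4 is no support for the list. Of the bone matrix proteins 4 of 9 tested genes were called higher and 0 lower, but 1 of the 4 was *Bglap2*, whose reads may be split with those of *Bglap*, a gene of the split, and which is no independent result. *Col1a1* stood at 20526, 11905 and 31514 CPM against 9609.7, 7485 and 13338 (log2 fold-change 1.12 ± 0.15 (SE), adjusted p = 0.0028), *Col1a2* at 14812, 10146 and 19871 against 7202, 4951 and 9423 and *Sparc* at 8743, 6249 and 9853 against 4227, 3325 and 4806 CPM. The cells with neither gene also carried type I collagen, but so did penis cells outside the members. *Col1a1* stood at 6367, 6186 and 6387 CPM in cells without a *Runx2* UMI. In cells with *Runx2* and 1 of the 7 bone genes it stood at 9106, 7960 and 8044 CPM, which overlaps with the cells with neither. Of the transcription factors *Runx1* and *Mef2c* were among those higher (log2 fold-changes 1.91 and 1.71) and of the signalling genes *Lifr*, *Lrp4* and *Id3* (2.78, 2.13 and 1.58).

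Beside *Bglap2*, the leading genes in the cells with *Ibsp* or *Bglap* included *Mmp13*, the stress-response gene *Nupr1*, *Hpgd*, which breaks down prostaglandins, *Col11a2*, *Slc36a2*, *Enpp1* and *Smpd3*. *Hpgd* stood at 133, 196 and 186 CPM against 9.8, 2.87 and 14.5 (log2 fold-change 4.39 ± 0.45 (SE), adjusted p = 8.18e-04). In the cells with neither it had 3, 1 and 3 UMIs, *Nupr1* had 7, 7 and 1 and *Col11a2* 2, 7 and 3, so these too entered the test only through the cells with *Ibsp* or *Bglap*. In the cells with neither they were *Nckap5*, *Kcnq3*, *Zfp804b*, *Erbb4*, *Chodl*, *Ptchd4*, *Nrk*, *Kcnip4*, *Dlg2* and *Myl9*. *Zfp804b* stood at 627, 565 and 847 CPM in these cells and 82.2, 73.5 and 46.4 CPM in those with *Ibsp* or *Bglap* (log2 fold-change -3.15 ± 0.30 (SE), adjusted p = 5.84e-04), and the receptor gene *Erbb4* at 108, 158 and 92 against 3.91, 29.4 and 6.63 CPM (log2 fold-change -3.08 ± 0.46 (SE), adjusted p = 0.0052). Both were lower in the cells with *Ibsp* or *Bglap* in 3 of 3 libraries, as were all 15 genes called lower. In the cells with *Ibsp* or *Bglap* there were 1, 6 and 1 UMIs of *Erbb4*, 1, 2 and 1 of *Nckap5*, 1, 4 and 1 of *Kcnq3* and 2, 4 and 1 of *Chodl*, so these entered the test only through the cells with neither. The same may hold for *Nrk*, *Ptchd4* and *Myl9*. These counts were the least stable of the 4 comparisons. Without library 1 they were 1 and 0 and without library 2 they were 3 and 0, without the members that held genes of another cell type 1 and 1, and with no library term 67 and 27. At an unadjusted p under 0.05 there were 421 and 768 genes in the first 2 of these fits, and 664 with all libraries. *Mmp13* and *Bglap2* lost their calls when each had its own spread (adjusted p = 0.032 and 0.05), as did *Col11a2* and *Smpd3*. None of 28 called genes named for this comparison kept its call whichever library was left out.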

How the data were processed

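Single-cell RNA-seq counts of 3 penis, 1 forelimb and 1 hindlimb library were analysed. The authors made droplet-based 3′ libraries, and the deposited matrices hold raw UMI counts per gene and barcode from Cell Ranger 7.0.0 on mm10, per the labels and the study's methods. Whether intronic reads were counted is not given in the sources used here.

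Cells were kept by detected genes and mitochondrial share at limits the study set: for penis 500 to 6000 detected genes and at most 5% mitochondrial UMIs, for limbs at least 100 genes, at most 9000 (forelimb) or 9500 (hindlimb), and at most 10%. The methods give the first pair as limits on reads, which were applied here to genes. The study also left out cells under 0.8 in log10 genes per UMI. That limit was applied only as an alternative (log10 genes over log10 UMIs), under which 6788, 7085 and 5708 penis cells, all 111 members and all 49 and 43 limb members stayed, while the other limb cells fell from 25812 to 22004 (forelimb) and from 23899 to 20468 (hindlimb). The members and the gene lists were chosen with earlier results of these data known. CPM are UMIs of a gene per 1000000 UMIs of the summed cells. Sums per library were tested with edgeR 4.0.16 (R 4.3.3), TMM scaling, its default filter on low counts and the quasi-likelihood test with Benjamini-Hochberg adjustment, at an adjusted p under 0.01 and an absolute log2 fold-change over 1. The library was a term in the 3 comparisons within the penis, since both sets came from the same libraries, although the deviations of same-library sums from their set means hardly correlated (-0.080 to 0.038). Standard errors are the absolute log2 fold-change divided by the square root of F. The 12 genes of the rule stayed in the fits and in the adjustment of p-values, and were left out of every count and list of named genes. Called genes were named by a rule: up to 4 per list with the largest fold, and 10 per direction with at least 50 CPM in every library of the higher set. A few results that the rule would name are not reported here. Genes named outside it are said to be so or were not called.

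Alternatives were DESeq2 1.42.0, other size factors, no filter on low counts, 3 or more bone genes, each library left out, thinning to 2000 UMIs and, added after the data were seen, robust quasi-dispersions (outlying genes with a spread of their own) and members without other cell types' genes. Scrublet marked 0, 0 and 4 penis cells and 0 hindlimb cells, too few to be of use, and 640 forelimb cells (2.47%), 1 of the 49 members there among them. Without these, 212 and 120 genes were called between penis and limb. Intervals on shares are exact binomial (95%) and cover counting error only, and folds against 0 UMIs use a floor of 3 UMIs over the set. The tests were tried on simulated counts with known changes. Promoter windows are from RefSeq (GRCm38.p6) and gene positions from GENCODE on GRCm38.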

Additional observations from a re-analysis of the deposited data

Results flagged for a closer look

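Barcodes outside the limits on cells also carried the bone genes, and they enter no comparison above. Over the upper limit of 6000 detected genes, 6 of 521, 15 of 446 and 8 of 308 barcodes of penis libraries 1, 2 and 3 passed the gene rule (1.15%, 3.36% and 2.60%), beside 42, 39 and 30 members within the limits (0.617%, 0.549% and 0.524% of the kept cells). Passing the rule depends on depth: the mean share of kept cells was 0.563%, and 0.185% after thinning to 2000 UMIs. The shares over and within the limit are therefore not alike in depth and show no enrichment. Over the limit of 5% mitochondrial UMIs, 7 of 2024, 7 of 2658 and 7 of 1549 barcodes passed it. There were no control samples for these counts.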

How the results depend on the processing

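The 3 bone-forming comparisons within the penis had the library as a replicate block, and without it the counts higher and lower were 307 and 497 against other penis cells, 260 and 401 against *Col2a1*-high cells, and 67 and 27 with against without *Ibsp* or *Bglap* (52 and 15 with it). No paired analysis was possible because penis and limb libraries come from different animals for the penis against limb comparison. With DESeq2 the lower count against other penis cells was 300 (281 higher), and the higher count against *Col2a1*-high cells 152. Without a filter on low counts the counts higher and lower were 525 and 559 against *Col2a1*-high cells, 459 and 343 for penis against limb, and 168 and 150 with against without *Ibsp* or *Bglap*. With 3 or more bone genes required, 107 and 176, 41 and 20, and 6 and 10 were called in these 3 comparisons, over 4223, 4101 and 1746 genes tested instead of 5620, 7880 and 4441. For the last comparison, members without genes of another cell type gave 1 and 1, a spread of their own for outlying genes 52 and 23, and thinning to 2000 UMIs 18 and 8 of 500 tested.

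Leaving out 1 library in turn gave 23 to 285 higher and 6 to 524 lower against other penis cells, 122 to 414 and 287 to 435 against *Col2a1*-high cells, 75 to 225 and 39 to 103 for penis against limb, and 1 to 55 and 0 to 27 with against without *Ibsp* or *Bglap*. The share of bone-forming cells was 0.220% with 3 or more bone genes, 2.07% with 1 or more and 0.185% after thinning, and the shares of members with a UMI fell to 13.0% for *Sp7*, 20.6% for *Ibsp* and 14.6% for *Bglap* at 2000 UMIs a cell. Against other penis cells, the log2 fold-change turned for *Fcer1g* against *Pdgfra* cells (1.24) and for *Hhip* (-2.02) and *Mkx* (-0.011) with 3 or more bone genes. Causes were not tested, beyond the fewer genes and cells these settings leave. Of 181 values of named genes, 1998 alternatives kept direction and call and 365 lost the call. With 111 cells in all, depth limits what can be said of genes at a few UMIs.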
